A study of Mus musculus with 54 samples.

Results

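The myeloid cells of the cornea were set against those of the spleen in 8 libraries of sorted cells, 4 of corneal resident myeloid cells (CRMCs) and 4 of spleen myeloid cells (spleen MCs), out of 54 samples in the series. The members were the 4 unnumbered cornea columns and the 4 spleen columns of the count table, and each CRMC library was paired with the spleen library of its genotype. Columns marked CKO without MS were taken as the KO pools, after the sample titles, and no column name spells out CRMC. Every library came from Csf1r-EGFP+ cells, sorted from male mice of 8 to 12 weeks that had not been challenged. Each CRMC library is a pool of several mice, and the number of mice behind a spleen library is not given in the sources used here, so that spleen pool is used only as a name for a spleen library. All mice carried the Csf1r-EGFP transgene, in which the promoter of the CSF1 receptor gene drives EGFP. Mice of the KO strain were either homozygous for a gene trap that inactivates the miR-183/96/182 cluster (miR-183C) in all cells (KO), or WT littermates (WT of KO strain). Mice of the MS-CKO strain had floxed miR-183C alleles, either with the LysM-Cre knock-in that drives Cre in myeloid cells from the Lyz2 locus and interrupts 1 copy of that gene (MS-CKO), or without Cre (WT of MS-CKO strain). With 1 pool for each genotype, the spread within a tissue holds genotype, strain and technical differences together. The p-values of tests without the pairing measure that spread. Those of tests with the genotype as a block measure how the tissue difference varies between pairs. Source fields of the spleen samples also read as purified CRMCs, and their titles were followed. Values per pool are CPM, counts scaled to the same total in each library, and stand in the order KO, WT of KO strain, MS-CKO and WT of MS-CKO strain.

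The cornea holds a small population of resident macrophages and dendritic cells in the epithelium and stroma, which keep watch over a tissue without blood vessels. The spleen is a blood filter, and its myeloid cells include monocytes, neutrophils, dendritic cells and macrophages of the red pulp and marginal zone. Macrophages settled in a tissue typically express complement C1q and apolipoprotein E, while monocytes fresh from blood carry Ly6C and the integrin LFA-1.

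The promoters of 3 gene pairs (250 bases before to 50 after the start, RefSeq, GRCm38.p6) are printed for orientation, chosen after the values had been seen. The genes of 2 pairs were called higher in CRMCs, and those of the chemokine pair were outside the tested set. Metallothioneins Mt2 (chr8:94172368-94172667, plus strand) and Mt1 (chr8:94178839-94179138, plus strand) bind zinc and copper. Capitals mark the core of the metal response element, TGCACNC or TGCGCNC on either strand.
Mt2: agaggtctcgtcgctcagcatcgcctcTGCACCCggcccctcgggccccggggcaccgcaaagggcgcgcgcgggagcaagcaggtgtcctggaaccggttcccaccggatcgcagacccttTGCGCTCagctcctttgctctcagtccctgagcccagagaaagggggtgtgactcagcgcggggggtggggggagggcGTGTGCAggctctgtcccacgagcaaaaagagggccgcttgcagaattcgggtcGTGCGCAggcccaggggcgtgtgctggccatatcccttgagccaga
Mt1: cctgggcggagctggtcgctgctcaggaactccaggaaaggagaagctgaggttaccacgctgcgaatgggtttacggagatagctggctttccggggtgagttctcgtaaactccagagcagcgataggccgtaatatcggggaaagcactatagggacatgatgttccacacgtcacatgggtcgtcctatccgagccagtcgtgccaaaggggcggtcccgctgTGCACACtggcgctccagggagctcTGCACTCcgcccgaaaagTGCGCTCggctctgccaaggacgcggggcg
The Mt2 window held 4 such stretches, and 0.295% of 32851 promoter windows held at least as many. The Mt1 window held 3, and 1.31% of windows held at least as many. At least 1 stretch was present in 25.7% of all windows. Hspa1b (chr17:34959189-34959488, minus strand) and Hspa1a (chr17:34972107-34972406, minus strand) encode the inducible chaperone Hsp70. Capitals mark GAANNTTC or TTCNNGAA, paired units of the heat shock element.
Hspa1b: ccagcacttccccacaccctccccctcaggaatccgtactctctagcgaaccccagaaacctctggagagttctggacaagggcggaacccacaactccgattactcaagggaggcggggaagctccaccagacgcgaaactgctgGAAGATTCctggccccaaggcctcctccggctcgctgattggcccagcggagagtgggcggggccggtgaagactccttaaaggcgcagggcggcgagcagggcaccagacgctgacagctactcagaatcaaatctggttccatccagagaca
Hspa1a: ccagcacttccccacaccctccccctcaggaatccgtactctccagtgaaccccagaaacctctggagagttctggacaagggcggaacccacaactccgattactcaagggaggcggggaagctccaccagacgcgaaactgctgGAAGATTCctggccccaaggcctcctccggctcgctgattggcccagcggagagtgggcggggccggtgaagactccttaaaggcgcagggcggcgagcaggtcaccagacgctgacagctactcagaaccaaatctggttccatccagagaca
Both windows held 1 such stretch, and 15.1% of all windows held at least 1. The windows had the same base at 296 of 300 positions. Cxcl2 (chr5:90903649-90903948, plus strand) and Cxcl1 (chr5:90890995-90891294, plus strand) are neutrophil-attracting chemokines. Capitals mark GGNNTTTCC on either strand, a short form of the NF-kB site.
Cxcl2: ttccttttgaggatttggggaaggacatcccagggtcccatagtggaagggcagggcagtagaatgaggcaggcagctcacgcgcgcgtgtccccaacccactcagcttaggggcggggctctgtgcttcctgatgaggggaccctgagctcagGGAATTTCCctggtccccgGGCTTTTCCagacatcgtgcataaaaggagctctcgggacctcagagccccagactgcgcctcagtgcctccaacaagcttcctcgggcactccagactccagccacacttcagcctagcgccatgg
Cxcl1: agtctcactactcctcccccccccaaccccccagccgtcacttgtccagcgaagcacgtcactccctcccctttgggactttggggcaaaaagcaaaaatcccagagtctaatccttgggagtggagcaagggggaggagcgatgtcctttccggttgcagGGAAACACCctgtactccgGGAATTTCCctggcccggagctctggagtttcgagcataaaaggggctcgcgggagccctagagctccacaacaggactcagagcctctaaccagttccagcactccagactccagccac
Both windows held 2 such stretches. They were among 3 of the 17 chemokine ligand windows on file (17.6%) that held 2, and 0.253% of all windows held at least as many. At least 1 was present in 6 of the 17 (35.3%), against 5.82% of all windows, and the windows of Pf4, Ccl3 and Ccl12 held none. No stretch shown overlapped one of another motif. The matches describe letters and not bound factors.

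Fewer genes were counted in CRMC pools than in spleen pools. Library totals were 4214416, 2261266, 10803867 and 6569553 counts in CRMC pools, against 6435054, 5140261, 9790238 and 9325136 counts in spleen pools. At least 1 count was found for 3488, 1650, 6455 and 3380 genes in CRMC pools, against 10559, 7323, 8658 and 9449 genes in spleen pools, so that the ranges did not overlap. After every library was thinned to 2261266 counts, 3546 ± 1866 genes remained in CRMC pools and 8725 ± 1363 in spleen pools (mean ± SD, n = 4 each, exact two-sided permutation p = 0.0286, the smallest that 4 against 4 pools can give). This permutation left out the pairing by genotype. Of the genes that were counted, the median count was 573 to 802 in CRMC pools and 190 to 380 in spleen pools. Of the 553 genes averaging 200 to 500 CPM in spleen MCs with at least 10 counts in all spleen pools, 33.1, 64.0, 17.0 and 42.5% stood at 0 in the 4 CRMC pools, and 8.50% stood at 0 in all of them. A zero in a single CRMC pool was thus common for a gene of that level, and a zero in all 4 was less so. Such zeros can be lost molecules or absent RNA, which cannot be told apart in these libraries. In pooled RNA, fewer cells of a type and less RNA per cell cannot be told apart either.

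**Figure D1:**
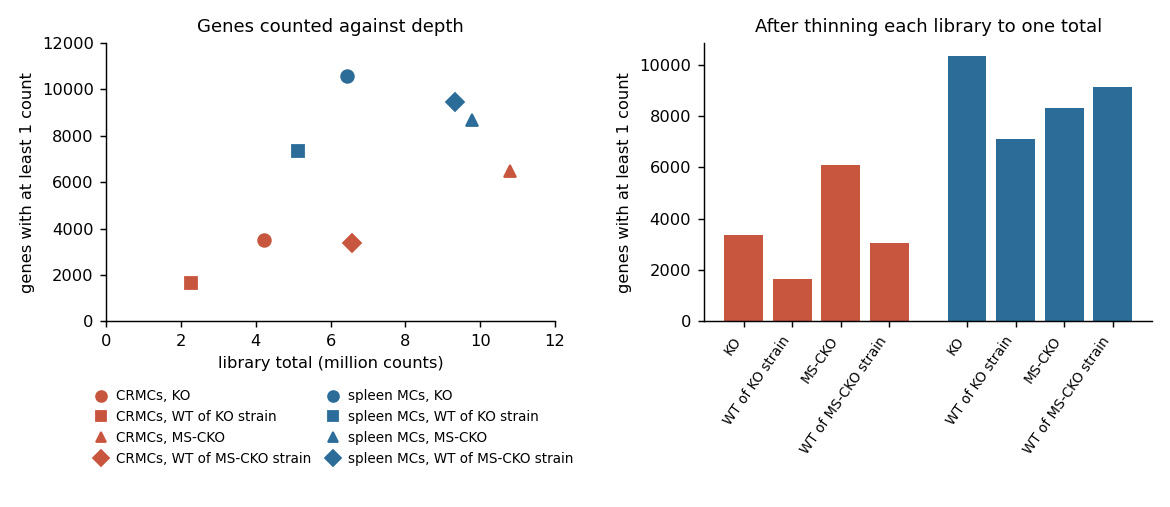
The left panel plots the number of genes with at least 1 count (vertical axis) against the library total (horizontal axis) for each pool, and the right panel shows that number after all libraries were thinned to the same total. CRMC pools (red) held 1650 to 6455 genes and spleen pools (blue) 7323 to 10559 before thinning.

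CRMC pools also differed more among themselves. Across the 2382 genes with at least 10 counts in 6 or more of the 8 pools, the correlation of log2 CPM between 2 CRMC pools was 0.006 to 0.267 (6 pairs), and that between 2 spleen pools was 0.586 to 0.784 (6 pairs). These are correlations across genes, which are not independent replicates. Over the 384 genes with at least 10 counts in all 8 pools, the ranges were 0.393 to 0.630 in CRMCs and 0.745 to 0.935 in spleen MCs.

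The sort gene Csf1r and the myeloid markers Cd74 and Lyz2 were counted in all 8 pools, while other myeloid genes were not. At least 10 counts were reached by 18, 17, 18 and 12 of 20 pan-myeloid genes in CRMC pools, against 20 in every spleen pool. Csf1r, the receptor gene whose promoter drives the sorted EGFP, was at 1029, 858, 182 and 322 CPM in CRMC pools, against 797, 1260, 827 and 651 CPM in spleen pools. Cd74, the invariant chain of MHC class II, was at 3848, 18922, 1755 and 4633 CPM in CRMC pools, against 7911, 19392, 7429 and 9142 CPM in spleen pools. Lyz2, the lysozyme gene of myeloid cells, was at 2368, 933, 77.5 and 19.8 CPM in CRMC pools, against 1074, 279, 699 and 1070 CPM in spleen pools. The 2 CRMC pools of the MS-CKO strain were thus the lowest for Csf1r and Lyz2, the MS-CKO pool with Cre and the WT pool without it alike. Csf1r (log2 change -1.37 ± 1.22 SE) and Lyz2 (-1.81 ± 1.62) did not pass the test (edgeR quasi-likelihood adjusted p = 0.889 for both), and the sign of Csf1r turned (0.38) when libraries were scaled by pan-myeloid counts. Lyz1, the other lysozyme gene, was at 0 to 105 CPM in CRMC pools, with no count in both WT pools, and at 17.4 to 216 CPM in spleen pools. The host transcript of miR-183C, Mirc35hg, had no count in any of the 8 pools.

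RNA of other cell types was counted in both tissues, and it was not the same RNA. Corneal epithelium markers (23 genes) summed to 10618 to 49582 CPM in CRMC pools, against 1349 to 1600 CPM in spleen pools, where nearly all of the sum came from Ly6d, a gene B cells express as well. The epithelial keratin Krt12 was at 22612, 4600, 13244 and 2975 CPM in CRMC pools, against 0 in all spleen pools. Keratocyte and fibroblast markers (16 genes) summed to 7742, 12873, 61930 and 68848 CPM in CRMC pools, against 0 to 2.80 CPM in spleen pools. The 2 pools of the MS-CKO strain were the highest in stromal RNA, and Dcn, the matrix proteoglycan decorin, alone stood there at 22926 and 25690 CPM. In the same 2 pools the pan-myeloid list (20 genes) summed to 4630 and 9162 CPM, against 18634 and 37363 CPM in the CRMC pools of the KO strain. Markers of other blood cells were found in spleen pools. Neutrophil markers (18 genes) summed to 0 to 540 CPM in CRMC pools, against 21103 to 49441 CPM in spleen pools. B cell markers (16 genes) summed to 0 to 0.0926 CPM in CRMC pools and to 6000 to 6572 CPM in spleen pools, and erythroid markers (14 genes) to 0 to 190 CPM in CRMC pools and to 2788 to 55941 CPM in spleen pools. Each of these sums of other cell types separated the tissues without overlap (exact two-sided permutation p = 0.0286, adjusted p = 0.0413 over 13 lists). The pan-myeloid sum, at 24406 to 37559 CPM in spleen pools, overlapped and was not tested. The permutation left out the pairing by genotype, and its p is the smallest possible and restates the lack of overlap. The lists were chosen with earlier results of these data known. T cell and plasma cell markers were lower, and the NK and innate lymphoid and the platelet list higher, in CRMCs at the same p. The platelet sum rested on Pf4 alone, a chemokine gene that macrophages transcribe as well, and the NK sum in CRMCs on Rora and Il1rl1, with Klrk1, Klrd1 and Nkg7 at 0. The endothelial and mast cell lists overlapped in the same exact permutation test (p = 0.0571, adjusted p = 0.0675), as did the nerve list (p = 0.486), and 1 melanocyte gene was seen in 1 pool.

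**Figure D2:**
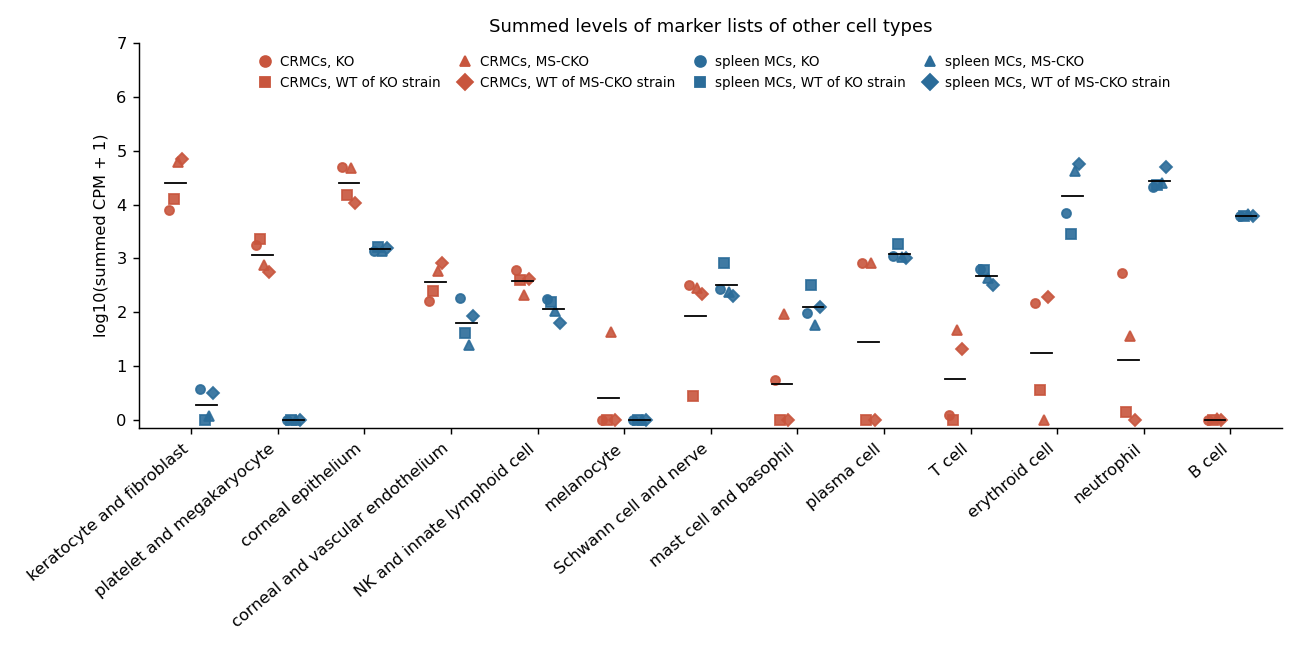
Each point is the summed CPM of a marker list in 1 pool, as log10(sum + 1) on the vertical axis, with CRMC pools in red left of spleen pools in blue and bars at the means of the plotted log values. Keratocyte markers reached 61930 and 68848 CPM in the CRMC pools of the MS-CKO strain, and neutrophil markers reached 49441 CPM in a spleen pool.

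Of the 2382 genes tested with the genotype as a block, 8 were higher in CRMCs (0.336% of those tested) and 7 were lower (0.294%) at an adjusted p under 0.05. The fit had 3 residual degrees of freedom and a common dispersion of 3.22, so that a gene that missed the threshold is not shown to be equal in the tissues. Its median log2 change over all genes was -3.18, and 1880 of the 2382 genes stood at 0 in 1 or more CRMC pools. Without the genotype block that median was -0.44, so -3.18 is tied to this fit. A fitted log2 change with a zero in it is no bound. The calls depended on single pairs of pools, and without the MS-CKO pair none of 1231 genes was called by edgeR in either direction, with 41 at an unadjusted p under 0.05, while the other pairs left out gave 1 to 5 higher and 0 to 2 lower. The calls also depended on the tool. Voom of limma called 2 genes higher (ND4 and CYTB) and 2 lower (Tmsb4x and Actb), with none of the 8 higher genes and 1 of the 7 lower ones among them, and DESeq2 called 40 higher and 621 lower, with 8 of the 8 and 4 of the 7. Without the genotype block, edgeR called 7 of the 8 higher genes (not Rn7sk) and Actb alone of the 7 lower ones. Scaled by library totals, 16 genes were higher and 5 lower, and scaled by 18 pan-myeloid genes, a choice made after the data had been seen, 20 were higher and 1 lower. Without any test, all 4 CRMC pools lay above all 4 spleen pools for 76 of the tested genes (3.19%) and below them for 167 (7.01%). Of the 14124 genes counted in any pool, 146 lay above (1.03%) and 1958 below (13.9%). Genes of few counts are among these. Among the 485 genes with at least 10 counts in all 4 CRMC pools 136 lay above. Among the 4892 with such counts in all 4 spleen pools 1714 lay below.

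Of the higher genes, the metallothionein gene Mt2 had the largest log2 change. Mt2 was at 5153, 2011, 4827 and 3038 CPM in CRMC pools, against 16.9, 0, 0 and 1.29 CPM in spleen pools (log2 change 12.15 ± 1.50 SE, adjusted p = 1.895e-07 in the edgeR fit). Mt1 was at 2003, 3485, 2310 and 2485 CPM in CRMC pools, against 30.1, 21.0, 0.102 and 15.2 CPM in spleen pools (7.28 ± 1.41, adjusted p = 0.0017). Every CRMC pool was far above every spleen pool for both genes, and their sum averaged 6328 ± 945 CPM in CRMCs and 21.2 ± 19.5 CPM in spleen MCs (SD, n = 4 each), a ratio of 299. The metallothionein sum was 5496 to 7156 CPM over CRMC pools. Both Hsp70 genes were called. Hspa1b was at 5042, 6650, 2868 and 1981 CPM in CRMC pools, against 141, 33.1, 73.3 and 231 CPM in spleen pools (4.80 ± 0.96, adjusted p = 0.00236), and Hspa1a at 6686, 7166, 2152 and 2216 CPM in CRMC pools, against 175, 259, 92.1 and 168 CPM in spleen pools (4.06 ± 0.84, adjusted p = 0.00365). Reads of these near-identical genes can be split between them, and their sum averaged 8690 ± 4802 CPM in CRMCs and 293 ± 96.9 CPM in spleen MCs, a ratio of 29.6.

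Gsto1, a glutathione transferase of the omega class, was at 10549, 6818, 6082 and 4654 CPM in CRMC pools, against 88.9, 235, 72.4 and 98.3 CPM in spleen pools (log2 change 5.44 ± 0.72 SE, edgeR adjusted p = 6.468e-07). Ier3, an immediate early gene that limits apoptosis, was at 873, 3532, 2038 and 2898 CPM in CRMC pools, against 75.1, 29.2, 62.1 and 71.8 CPM in spleen pools (4.72 ± 1.19, adjusted p = 0.0386). Dapl1 was at 2752, 1745, 3315 and 418 CPM in CRMC pools, against 1.24, 0, 13.6 and 4.50 CPM in spleen pools (9.29 ± 1.69, adjusted p = 0.000634). Rn7sk, the small nuclear RNA that restrains transcription elongation, was also called (10.34 ± 2.57, adjusted p = 0.0339), at 1095, 2681, 734 and 795 CPM in CRMC pools against 3.57, 0, 0 and 12.0 CPM in spleen pools, and its many genomic copies and lack of a poly(A) tail leave its counts uncertain. Whether epithelial or stromal cells supplied part of the RNA of these 8 genes was not tested.

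The 7 lower genes were S100a9, Rac2, Shisa5, Cd52, Actb, Cd74 and H2-Aa. S100a9, a calprotectin subunit that neutrophils and monocytes make in bulk, was at 492, 0, 34.8 and 0 CPM in CRMC pools, against 5073, 6607, 8547 and 15539 CPM in spleen pools (log2 change -11.54 ± 1.55 SE, edgeR adjusted p = 6.468e-07). It is one of the neutrophil markers that summed to at least 21103 CPM in spleen pools. Rac2, a small GTPase of blood cells, was at 302, 483, 0 and 0 CPM in CRMC pools, against 1683, 2844, 1669 and 1256 CPM in spleen pools (-8.75 ± 2.23, adjusted p = 0.0396). Both changes rest on pools at 0. In the edgeR fit without the genotype block they were -6.69 for S100a9 (adjusted p = 0.086) and -4.19 for Rac2 (adjusted p = 0.683). Shisa5 (2.37, 0, 69.2 and 12.8 CPM in CRMC pools, against 1652, 2705, 1493 and 1018 CPM in spleen pools) and the leukocyte surface antigen Cd52 (1016, 552, 123 and 0.152 CPM in CRMC pools, against 3517, 2405, 3058 and 2866 CPM in spleen pools) were separated as well (adjusted p = 0.00236 and 0.0257). Actb, cytoplasmic actin, was at 7967, 6889, 4875 and 5476 CPM in CRMC pools, against 10381, 14194, 12855 and 12562 CPM in spleen pools (-1.52 ± 0.32, adjusted p = 0.00443). Cd74 fell by 1.55 ± 0.34 (adjusted p = 0.00591), and H2-Aa, the alpha chain of MHC class II, fell by 1.83 ± 0.40 (adjusted p = 0.00741). For both MHC class II genes the CRMC pool of the WT of KO strain, at 18922 and 11272 CPM, lay within or above the spleen range. Under the pan-myeloid scaling, Actb and Cd74 turned to higher in CRMCs (0.22 and 0.19, not called), and S100a9 was the only lower gene called.

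**Figure D3:**
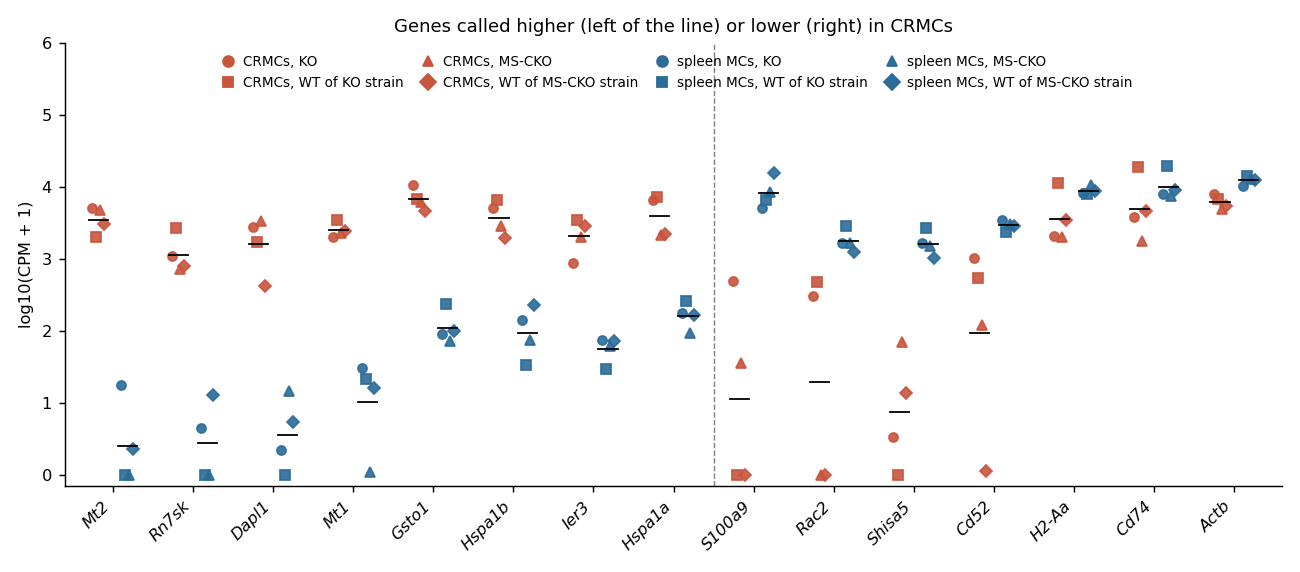
Each point is the CPM of a gene in 1 pool, as log10(CPM + 1) on the vertical axis, with CRMC pools in red left of spleen pools in blue and bars at the means of the plotted log values. Left of the dashed line are the 8 genes higher in CRMCs, and right of it the 7 lower ones, where CRMC pools at 0 lie on the axis.

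Among the 384 genes with at least 10 counts in all 8 pools, which hold no zeros, the same fit called 13 genes higher (3.39%) and 3 lower (0.781%), with a median log2 change of 0.10. Gsto1, Hspa1a, Hspa1b and Ier3 were among the higher ones. Apoe, which carries lipids out of macrophages, was at 4064, 7838, 2415 and 3777 CPM in CRMC pools, against 578, 949, 416 and 489 CPM in spleen pools (log2 change 2.63, adjusted p = 0.00758 in this edgeR fit). The tetraspanin Cd63 (2.88, adjusted p = 0.039), the Hsp40 chaperone Dnajb1 (3.14, 0.012), the transcription factors Egr3 (4.38, 0.0214) and Fosl2 (4.24, 0.012), the NF-kB regulator Nfkbiz (3.82, 0.0137), Ifrd1 (5.54, 0.00102), Phlda1 (6.86, 0.00102) and Yif1b (3.42, 0.00937) were the others. The lower genes were the class I heavy chain H2-K1 (-2.97, 0.0144), the lysosomal reductase Ifi30 (-2.64, 0.0214), which opens disulfide bonds of antigens, and the ribosomal protein gene Rps27 (-1.95, 0.038). Of the 7 genes called lower above, 3 could be tested here and none of these was called by edgeR. Their log2 changes in this fit were -1.21 for Actb, -1.24 for Cd74 and -1.51 for H2-Aa.

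**Figure D4:**
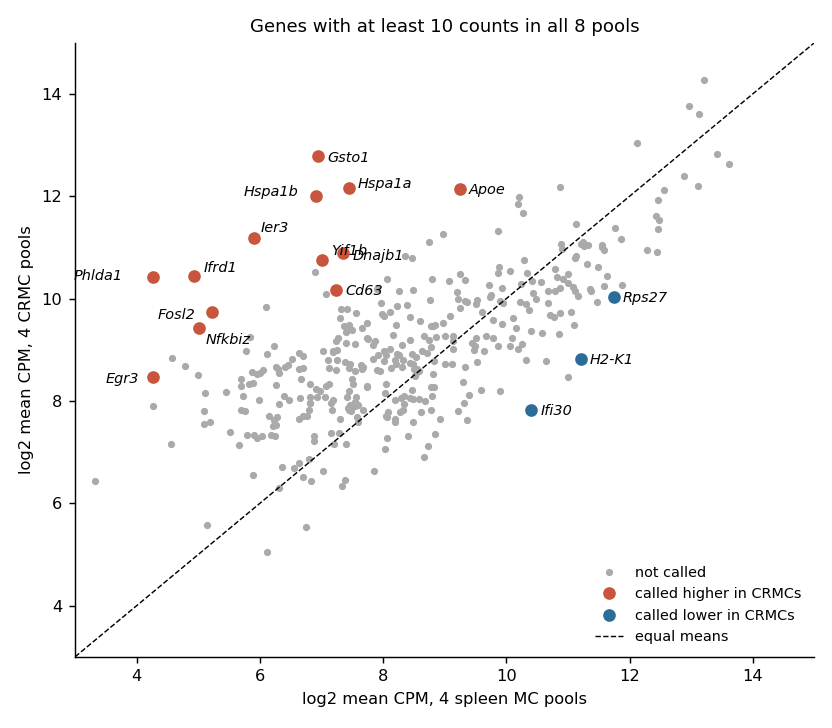
Mean CPM of 384 genes in the 4 CRMC pools (vertical axis, log2) against that in the 4 spleen pools (horizontal axis, log2). Genes called higher in CRMCs are red (13 genes), those called lower are blue (3 genes), and the dashed line marks equal means.

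Immediate early and stress genes stood higher in CRMC pools as a list. Of the 29 genes on that list, which enzymatic or mechanical dissociation of tissue is known to induce, 28 could be tested, and 3 were called higher (Hspa1b, Hspa1a and Ier3) and none lower. The median log2 change of the 28 was 1.87, beside -3.18 over all genes tested, and CRMC pools lay above all spleen pools for 16 of them (against 3.19% of tested genes). In the fit of the 384 genes with at least 10 counts in all 8 pools, 20 of them had a median of 2.19, beside 0.10. Among the 25 with at least 10 counts in all CRMC pools 17 lay above, beside 136 of 485 such genes. The list summed to 22120 to 43155 CPM in CRMC pools and to 5311 to 8975 CPM in spleen pools. The zinc finger factor Egr1 was at 2416, 1690, 2200 and 1814 CPM in CRMC pools, against 45.1, 118, 0 and 18.4 CPM in spleen pools, and missed the threshold (adjusted p = 0.0671 by edgeR). Atf3, a stress-induced bZIP factor, was at 1213, 1021, 1108 and 462 CPM in CRMC pools, against 22.5, 1.75, 5.52 and 0 CPM in spleen pools (adjusted p = 0.102). The Fos family member Fosb was at 1162, 512, 1116 and 612 CPM in CRMC pools and at 92.2, 84.6, 0 and 20.4 CPM in spleen pools. Corneas were dissected and dissociated while spleen cells were prepared as mononuclear cells, so that tissue and preparation cannot be told apart here.

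Several chemokine genes were counted in every CRMC pool and in few or no spleen pools, which left most of them outside the tested set. Of the 19 ligands counted in any pool, 8 lay above every spleen pool in all CRMC pools and 3 below, beside 1.03% and 13.9% of all counted genes. Among the 9 with at least 10 counts in all CRMC pools 8 lay above, beside 136 of 485 such genes. Among the 4 with such counts in all spleen pools 3 lay below, beside 1714 of 4892. Pf4 (CXCL4), a product of tissue macrophages as well as platelets, was at 1780, 2271, 740 and 565 CPM in CRMC pools, against 0 in all spleen pools. The monocyte attractants were counted in all CRMC pools. Ccl2 was at 1189, 946, 617 and 128 CPM, Ccl7 at 1140, 3509, 552 and 227 CPM and Ccl12 at 262, 2378, 211 and 50.5 CPM in CRMC pools. All of them stood at 0 in every spleen pool. The chemokines Ccl3 and Ccl4 were at 1499, 2843, 714 and 840 CPM and at 832, 2100, 750 and 305 CPM in CRMC pools. In spleen pools they were at 91.2, 161, 56.9 and 0 CPM and at 0, 0, 8.17 and 0 CPM. Neutrophil attractants were Cxcl2, at 4615, 3978, 1290 and 1093 CPM in CRMC pools against 30.5, 0, 0 and 0 CPM in spleen pools, and Cxcl1, at 11.6, 598, 114 and 19.0 CPM in CRMC pools against 0 in all spleen pools. Most of these ligands were highest in a pool of the KO strain. Some other ligands were lower in CRMC pools than in spleen pools. Ccl5, an attractant of lymphocytes and monocytes, was at 0 in all CRMC pools, against 220, 370, 257 and 53.0 CPM in spleen pools. Ccl6 was at 160, 0, 25.1 and 0 CPM in CRMC pools, against 1138, 1137, 939 and 643 CPM in spleen pools (adjusted p = 0.102 by edgeR). Of the 4 ligands tested none was called, and of 17 receptors only Cx3cr1 could be tested and was not called. Fibroblasts and epithelium can transcribe Ccl2, Ccl7 and Cxcl1, and their part in these levels was not tested.

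Genes of settled macrophages summed to higher levels in CRMC pools, with no call in the test of 2382 genes, and single members ran both ways. Of 28 genes, 9 were tested and none was called, with a median log2 change of 1.64 beside -3.18 over all genes tested. In the fit of the 384 genes with at least 10 counts in all 8 pools, 6 of them had a median of 1.89, beside 0.10. The summed level was 6343 to 21288 CPM in CRMC pools, against 2429 to 2910 CPM in spleen pools. Apoe alone gave 4064, 7838, 2415 and 3777 CPM of it in CRMC pools, and 578, 949, 416 and 489 CPM in spleen pools. Whether epithelial or stromal cells supplied part of this RNA was not tested. Of the 24 members counted in any pool, 4 lay above every spleen pool in all CRMC pools and 2 below, beside 1.03% and 13.9% of all counted genes. Among the 6 with at least 10 counts in all CRMC pools 4 lay above, beside 136 of 485 such genes. Among the 11 with such counts in all spleen pools 2 lay below, beside 1714 of 4892. The 2 lower ones were F13a1, a transglutaminase subunit, at 0, 1.77, 0 and 0 CPM in CRMC pools, against 308, 85.6, 190 and 146 CPM in spleen pools, and the growth factor gene Igf1, at 0, 0, 0 and 0.152 CPM in CRMC pools, against 3.11, 11.1, 34.2 and 37.4 CPM in spleen pools. C1qb and C1qc, chains of the complement C1q molecule that tags debris for uptake, were at 1203, 4321, 1024 and 704 CPM and at 1327, 2299, 596 and 460 CPM in CRMC pools. In spleen pools C1qb was at 168, 508, 420 and 214 CPM and C1qc at 168, 108, 388 and 289 CPM. C1qa, the partner chain, was at 2484, 1271, 818 and 16.6 CPM in CRMC pools and overlapped with the spleen range of 308 to 446 CPM. The selenium carrier Sepp1 was at 182, 1025, 398 and 266 CPM in CRMC pools, against 171, 86.0, 101 and 56.1 CPM in spleen pools. C3ar1, the receptor of the anaphylatoxin C3a, was outside the tested set, at 334, 1127, 94.1 and 106 CPM in CRMC pools, against 8.55, 0, 0 and 0.965 CPM in spleen pools. Other markers of resident macrophages were patchy in CRMCs. Adgre1, which encodes the macrophage antigen F4/80, was at 0, 1060, 22.3 and 0 CPM in CRMC pools, against 87.0, 20.4, 61.6 and 93.5 CPM in spleen pools. The mannose receptor gene Mrc1 was at 0, 0, 6.57 and 50.2 CPM in CRMC pools, against 13.8, 0, 24.3 and 41.3 CPM in spleen pools. Cd14, a lipopolysaccharide coreceptor, was at 1230, 2636, 158 and 0 CPM in CRMC pools, against 16.2, 4.09, 12.4 and 56.9 CPM in spleen pools, and the fractalkine receptor Cx3cr1 was at 0, 0, 59.2 and 311 CPM in CRMC pools, against 375, 628, 142 and 88.4 CPM in spleen pools. The haptoglobin receptor Cd163 had no count in CRMC pools and at most 45.7 CPM in spleen pools.

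**Figure D5:**
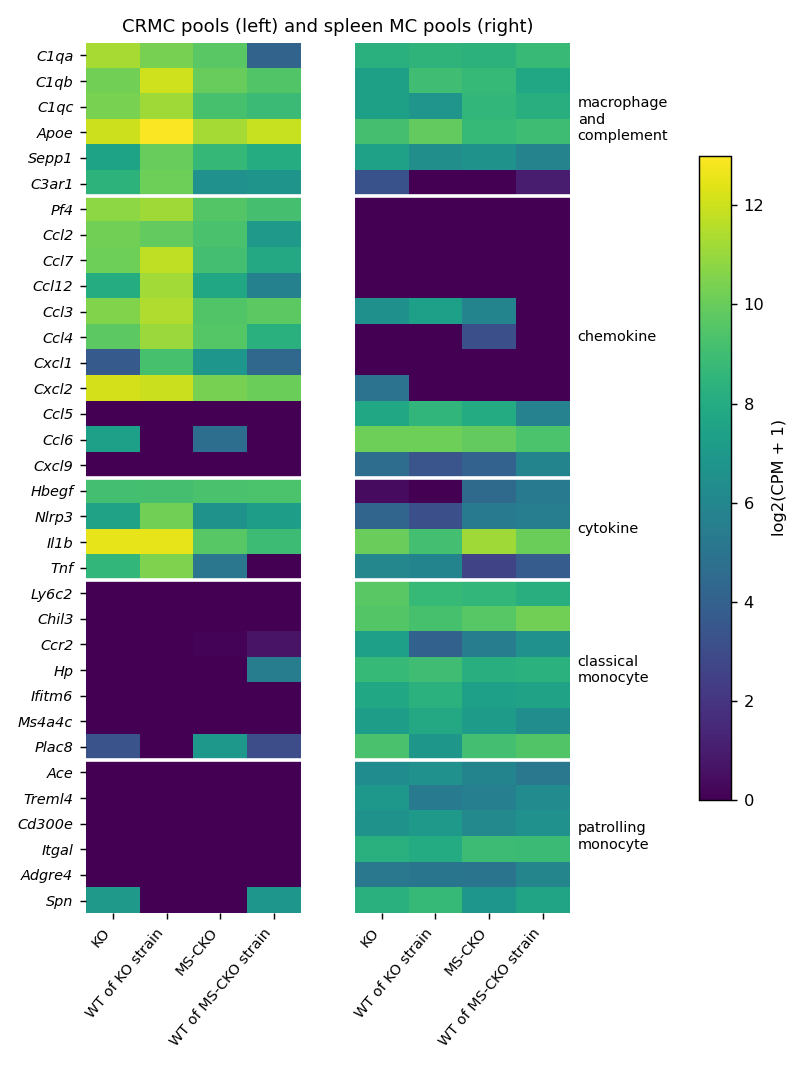
Heat map of log2(CPM + 1) of macrophage, complement, chemokine, cytokine and monocyte genes in the 4 CRMC pools (left block) and the 4 spleen pools (right block). Pf4, Ccl2, Ccl7 and Ccl12 are at 0 in all spleen pools, and Ly6c2, Chil3, Ifitm6 and Ms4a4c at 0 in all CRMC pools.

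Cytokine and growth factor genes were mixed. Of 25 members, 9 were tested and none was called. Hbegf, a ligand of the EGF receptor, was nearly even over CRMC pools, at 556, 573, 614 and 630 CPM, against 0.311, 0, 21.3 and 41.3 CPM in spleen pools, without a call (edgeR adjusted p = 0.756). The inflammasome sensor Nlrp3 was at 176, 1217, 99.7 and 152 CPM in CRMC pools, against 17.9, 7.98, 38.1 and 46.6 CPM in spleen pools. The interleukin Il1b was at 5917, 5808, 778 and 486 CPM in CRMC pools and at 1056, 557, 2239 and 1071 CPM in spleen pools, so that the 2 pools of the KO strain were above and those of the MS-CKO strain within or below the spleen range.

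Many monocyte genes had few or no counts in CRMC pools. Of 18 classical monocyte genes counted in any pool, 10 lay below every spleen pool in all CRMC pools and 1 above, beside 13.9% and 1.03% of all counted genes. Among the 15 with at least 10 counts in all spleen pools 10 lay below, beside 1714 of 4892 such genes. Ly6c2, the surface antigen that defines classical monocytes, was at 0 in all CRMC pools, against 816, 417, 389 and 289 CPM in spleen pools. No fold is given for zeros in either tissue, where lost molecules would make it no bound. The chitinase-like Chil3 was at 0 in all CRMC pools, against 721, 584, 793 and 1206 CPM in spleen pools, and Ifitm6 and Ms4a4c were likewise at 0 against 158 to 316 and 82.6 to 230 CPM. S100a6, a calcium-binding protein on the same list that many cell types make, ran the other way, at 6456, 1882, 4512 and 3347 CPM in CRMC pools, against 1324, 1158, 1217 and 1023 CPM in spleen pools. Of 13 patrolling monocyte genes, 7 lay below and none above, and all 7 were among the 11 with such counts in all spleen pools. The integrin chain Itgal (LFA-1) was at 0 in all CRMC pools, against 308, 254, 473 and 468 CPM in spleen pools, and Cd300e, Treml4, Ace and Adgre4 were at 0 against 31.1 to 126 CPM. Its partner Itgb2, which many leukocytes share, was at 1.66, 0, 0 and 0 CPM in CRMC pools, against 578, 279, 764 and 655 CPM in spleen pools. Of the 5 tested members of each list none was called. As given above, a zero in a single CRMC pool was common for genes averaging 200 to 500 CPM in spleen MCs. A zero in all 4 was less so, at 8.50%. For genes below 100 CPM in spleen MCs, with at least 10 counts in all spleen pools, that share was 27.4%.

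Neutrophil, B cell and red cell genes were counted mostly in spleen pools. Of 18 neutrophil genes counted in any pool, 16 lay below every spleen pool in all CRMC pools and none above, and of 13 B cell genes 12 lay below and none above, beside 13.9% and 1.03% of all counted genes. With at least 10 counts in all spleen pools, 16 of 16 neutrophil and 11 of 11 B cell genes lay below, beside 1714 of 4892 such genes. The granule genes Ngp and Camp were at 0 in all CRMC pools, against 2363, 2545, 3248 and 6749 CPM for Ngp and 918, 363, 1513 and 4408 CPM for Camp in spleen pools. The B cell complement receptor gene Cr2 was also at 0 in all CRMC pools, against 878, 784, 1282 and 1302 CPM in spleen pools. The 4 globin genes summed to 149, 0, 0 and 185 CPM in CRMC pools, against 6687, 2788, 41992 and 55427 CPM in spleen pools, and the spleen pools of the MS-CKO strain were the higher ones. Outside the tested set, 61 genes had at least 10 counts in all 4 CRMC pools, and 2636 genes had such counts in all 4 spleen pools. The 10 most abundant of the 61 were Dcn, Col1a1, Krt12, Aldh3a1, Col1a2, A2m, Krt5, Sparc, Apod and Igfbp2, stromal and epithelial genes of the cornea for the most part. The 10 of the spleen were Hbb-bs, S100a8, Hbb-bt, Ngp, Hba-a1, Hba-a2, Camp, Retnlg, Ly6d and Fcmr.

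Of 16 MHC class II genes, 9 were tested, and Cd74 and H2-Aa were called lower and none higher, with a median log2 change of -1.83, beside -3.18 over all genes tested and 0.294% called lower. Over the 7 with at least 10 counts in all 8 pools, the median in their own fit was -1.35, beside 0.10 over the 384 such genes. The list summed to 8200 to 50235 CPM in CRMC pools and to 31796 to 47877 CPM in spleen pools, and B cells, which express class II, were counted at 6000 to 6572 CPM of markers in spleen pools and at no more than 0.0926 CPM in CRMC pools, their part in the class II sum being not tested. H2-Ab1, the partner chain of H2-Aa, was at 3007, 5827, 1562 and 1544 CPM in CRMC pools, against 4701, 7489, 5603 and 5113 CPM in spleen pools (adjusted p = 0.102 by edgeR). Of 20 class I genes, 10 were tested and none was called, with a median of -2.71, beside -3.18 over all genes tested. In the fit of the 384 genes, the 4 class I genes had a median of -1.64, beside the same 0.10. The class I list summed to 2672 to 8025 CPM in CRMC pools and to 9106 to 11045 CPM in spleen pools.

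Of 28 actin and motility genes, 20 were tested, and Actb and Rac2 were called lower and none higher (median log2 change -1.63, beside -3.18 over all genes tested). Myo1f and Myo1g, class I myosins of leukocytes, were at 0 in all CRMC pools, against 419 to 669 and 295 to 739 CPM in spleen pools. Of the 20 pan-myeloid genes 19 were tested, and Cd74 and Cd52 were called lower (median -2.31, beside the same -3.18). Ptprc (CD45), the common leukocyte antigen, was at 0, 46.9, 105 and 379 CPM in CRMC pools, against 658, 480, 960 and 1022 CPM in spleen pools, without a call (edgeR adjusted p = 0.889). The interferon regulatory factor Irf8 was at 155, 0, 34.6 and 0 CPM in CRMC pools, against 855, 909, 1051 and 1005 CPM in spleen pools (adjusted p = 0.13). In the lysosome list 21 of 30 genes were tested and none was called, with a median log2 change of -2.09 beside -3.18 over all genes tested. In the fit of the 384 genes with at least 10 counts in all 8 pools, the median over all genes was 0.10. There it was -0.67 for 8 actin and motility genes, -1.24 for 11 pan-myeloid genes and -1.33 for 12 lysosome genes. Of 29 counted members, 2 lay above every spleen pool in all CRMC pools and 3 below, beside 1.03% and 13.9% of all counted genes. Among the 12 with at least 10 counts in all CRMC pools 2 lay above, beside 136 of 485 such genes. Among the 24 with such counts in all spleen pools 3 lay below, beside 1714 of 4892. Ctsl, a cysteine protease, was at 271, 518, 1714 and 984 CPM in CRMC pools, against 71.0, 43.8, 6.33 and 26.7 CPM in spleen pools. Ctsh, another cysteine protease, was at 7.36, 654, 307 and 196 CPM in CRMC pools, against 906, 1210, 915 and 789 CPM in spleen pools. In 33 of the 38 lists no member was called, and 10 of these had no member that could be tested.

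The tissue difference was compared between genotypes and strains. No gene of 2382 differed in it between the null pools (KO and MS-CKO) and the WT pools at an adjusted p under 0.05 in edgeR. Unadjusted, 265 genes had a p under 0.05, and 443 passed the adjusted threshold of DESeq2. No gene differed between the MS-CKO and the KO strain either, against 120 unadjusted and 373 with DESeq2. With 1 pool for each genotype and tissue, such differences rest on 2 pools against 2 in each tissue.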

How the data were processed

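RNA of the sorted pools was made into 3′ mRNA libraries with the QuantSeq 3′ FWD kit, which reads 1 end of each transcript. According to the submitters' processing notes, reads were aligned to mm10 with STAR and counted with HTSeq. The sources used here name no versions, annotation or molecular identifiers, so the counts cannot be taken as counts of molecules. The deposited table holds raw read counts of the authors over 35976 gene rows, with no normalization, and 8 of its 54 per-sample columns were used here and 46 were not. Names of 27 rows were turned into dates and 2 symbols stand on more than 1 row, and none of these is named.

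Genes with at least 10 counts in at least 6 of the 8 pools (2382) entered the quasi-likelihood F test of edgeR 4.0.16 under R 4.3.3, with TMM factors, the genotype as a block and Benjamini-Hochberg adjustment over all genes tested. The SE is the size of the log2 change divided by the square root of F. CPM are counts divided by the column total. Summed CPM of the 13 lists of other cell types were compared as log2(sum + 1) by exact permutation over 70 regroupings of the 8 pools, without the pairing, adjusted over the 13 lists. Alternatives were RLE and upper-quartile factors, library totals, 3 other filters, DESeq2 1.42.0, voom of limma 3.58.1, a fit without the block, leaving out each pair, and leaving out genes of other cell types. Scaling by the counts of pan-myeloid genes was added after the data had been seen. On simulated data with planted changes of equal size, the test recovered the changed genes at a low dispersion and none of them at the dispersion fitted here, so missed differences are to be reckoned with. The simulation gave every gene the same dispersion and added no loss of molecules, so it cannot grade the genes that were called.

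Genes were named by a rule: up to 15 each way with the largest change among called genes that kept 1 direction in 4 pairs, did not overlap and averaged at least 50 CPM, the markers of the sort and Mirc35hg, up to 4 tested members with the smallest p in each of 38 gene lists, and the 10 most abundant each way outside the filter. Other genes were singled out after their values had been seen. The members and the gene lists were chosen with earlier results of these data known. Values of some list members are not reported here.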

Additional observations from a re-analysis of the deposited data

Results flagged for a closer look

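In 18 of 116 groups of 4 pools, 1 pool lay far from the other 3. The rule flags about 5% of independent groups of normally distributed values. These groups share genes and hold skewed CPM with zeros, so the 18 cannot be set against that rate. These values are given without an explanation.

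Among CRMC pools, the WT of KO strain stood apart for Cd74 (18922 CPM, next 4633 CPM), for H2-Aa (11272 CPM, next 3443 CPM) and for the summed glycolysis list (455 CPM, next 1205 CPM). The KO pool stood apart for S100a9 (492 CPM, next 34.8 CPM) and with it for the neutrophil list (540 CPM). The MS-CKO pool alone held counts of melanocyte (42.9 CPM) and B cell markers (0.0926 CPM), and it was highest in mast cell and basophil markers (92.2 CPM, next 4.51 CPM).

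Among spleen pools, the WT of KO strain was the highest for Cd74 (19392 CPM, next 9142 CPM) and Gsto1 (235 CPM, next 98.3 CPM). It was also highest for the summed pan-myeloid (37559 CPM), resident macrophage (2910 CPM), interferon response (7068 CPM), nerve (828 CPM) and plasma cell lists (1867 CPM). The KO pool was highest for Mt2 (16.9 CPM, next 1.29 CPM) and the lysosome list (14050 CPM, next 9461 CPM). The WT of MS-CKO strain was highest for the neutrophil list (49441 CPM, next 25199 CPM).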

How the results depend on the processing

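Counts of calls moved with most settings, and the cause was not tested unless named. Against 8 higher and 7 lower genes, there were 15 and 11 with RLE factors, 15 and 11 with upper quartile factors, and 16 higher with library totals. With more genes tested, filterByExpr gave 55 higher and 75 lower and no filter beyond 1 count gave 57 and 60. With 10 counts in all 8 pools, there were 13 and 3. DESeq2 called 40 higher and 621 lower, and limma voom called ND4 and CYTB higher and Tmsb4x and Actb lower, 2 each way, of which Actb alone was among the 15 genes. Scaling by pan-myeloid counts, chosen after the data had been seen, gave 20 and 1, and turned the log2 changes of Actb to 0.22, Cd74 to 0.19 and Csf1r to 0.38. The median log2 change of all genes was -3.18 with TMM factors, -2.95 with RLE factors, -2.77 with library totals and -1.43 with that scaling. It moved to -0.44 without the genotype block. With 1 pair left out, where other sets of genes were tested, it was -1.22 to -1.08. Leaving out 1 pair of pools gave 0 to 5 higher and 0 to 2 lower genes.

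Without the replicate block, 7 genes were higher and 1 was lower (Actb). Pools of the same genotype deviated together with r = 0.234, 0.088, -0.042 and 0.016 across 384 genes, so that the genotype did not clearly pair the pools. No count of genes that differed between null and WT pools was above 0 in edgeR except 1 with filterByExpr and 1 without a filter, against 443 in DESeq2 and 265 unadjusted. Between strains these were 5, 5, 373 and 120. Of the log2 changes of named genes that were recomputed, 163 kept their direction and side of the threshold, 70 kept only the direction and 3 turned. In 1 or more CRMC pools, 1880 of 2382 genes had a zero.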
